A study of Ovis aries with 14 samples.

Results

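Collagen chains are the protein subunits that wind around each other in triple helices to make the collagens of the extracellular matrix. Genes were taken as collagen chains where the deposited gene name was COL, a number, A and a number, which gave 38 of the 17323 genes listed in the 3 deposited tables. By known assembly type they were 11 fibrillar chains, 8 basement membrane chains and 19 others (4 beaded filament, 1 network, 8 FACIT, 4 transmembrane and 2 other chains). The fetal table held all 38, and each of the 2 adult tables held 36, because COL9A1 and COL25A1 were listed only in the fetal table. COL6A1, COL7A1, COL8A2, COL9A3, COL10A1 and COL19A1 were not analysed here.

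RNA was sequenced from whole frozen ovaries of Suffolk sheep, all labelled wild type. The 14 libraries were 3 controls and 3 testosterone-exposed fetuses at gestation day 90, and 4 controls and 4 testosterone-exposed adults at year 2. Exposed animals were born to, or carried by, ewes injected in the muscle with testosterone propionate in cottonseed oil, 2 doses a week from day 30 to day 90 of gestation; the labels give both 100 mg and 1.2 mg/kg for the dose. The labels describe no injection for controls, number the samples without naming mothers or litters, and give no cycle stage for the adults, so the p-values speak of the spread among these samples, which may be partly technical.

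Fibrillar collagens of types I, III and V form the cables that give stroma and capsule their strength, and the type V and XI chains help set where a fibril starts and how thick it grows. Type IV chains build the sheet-like basement membranes under epithelia and around vessels, and in the ovary a type IV basal lamina surrounds each follicle. FACIT collagens decorate fibril surfaces, type VI collagen forms beaded filaments close to cells, and transmembrane collagens sit in the cell surface. A newly made chain is hydroxylated, glycosylated and folded in the endoplasmic reticulum, then trimmed by procollagen proteinases and crosslinked by lysyl oxidases outside the cell.

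Values are normalized counts, that is, reads of a gene divided by a size factor, on a scale shared by the 14 libraries; a log2 change is the difference of mean log2(normalized count + 1). Levels are compared between samples and not between chains, since transcript lengths were not used here. The libraries held between 22.6 and 33.4 M recovered reads. Collagen chains took 2.23% to 3.17% of reads in the 6 fetal libraries and 1.98% to 8.19% in the 8 adult libraries. COL1A1, COL1A2 and COL3A1, the chains of types I and III, made up 60.5% to 69.7% of the collagen reads in fetuses and 65.4% to 82.2% in adults. In whole-organ RNA, fewer cells of a type and less RNA per cell cannot be told apart.

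**Figure D1:**
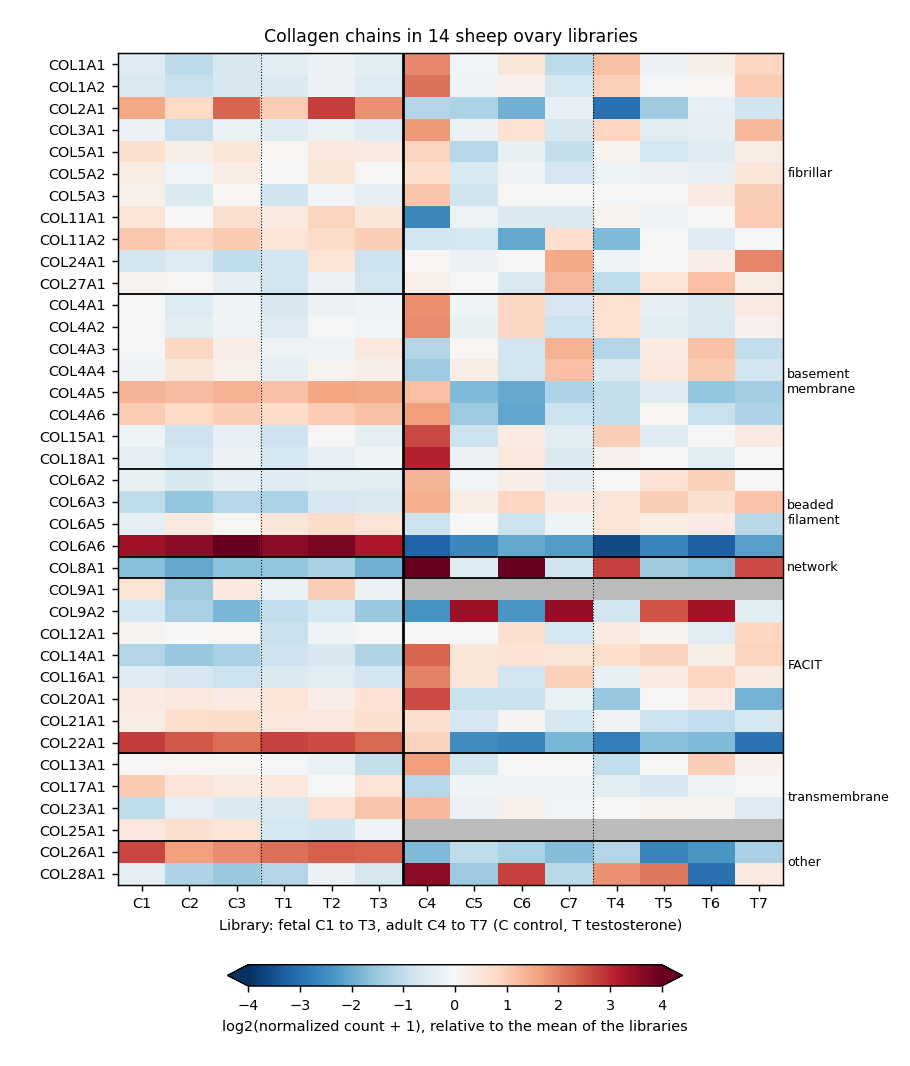
Each row is a collagen chain, grouped by assembly type, and each column a library; colour is log2(normalized count + 1) minus that chain's mean over its libraries, with values beyond 4 in either direction drawn at the end of the scale and grey where a chain was not listed. COL6A6, COL22A1, COL26A1 and COL2A1 are higher in all 6 fetal than in all 8 adult libraries, and adult control 4 (column C4) is the highest adult library for 23 of 36 chains.

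The first comparison was of the untreated ovary at the 2 ages, 4 adult controls against 3 fetal controls. Of 36 chains, 11 passed the limma test at an adjusted p under 0.05, which is 30.6% of the chains beside 28.7% of all 15168 genes tested, so the share of chains is close to the background. Lower in adults were COL6A6, COL22A1, COL26A1, COL2A1, COL4A5, COL11A2 and COL11A1 (7 of 36, against 15% of all genes), and higher were COL8A1, COL14A1, COL6A3 and COL16A1 (4 of 36, against 13.7%). Of the 11 fibrillar chains 0 passed as higher and 3 as lower, of the 8 basement membrane chains 0 and 1, and of the 17 others 4 and 3. The median log2 change of the 36 chains was 0.18, with 19 positive and 17 negative, beside 0.03 for all genes. Age and deposited table, with any sequencing run behind it, cannot be told apart.

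COL6A6, an alternative chain of the beaded filament collagen VI, had the largest change of the 36. Its normalized counts were 7046, 8233 and 11945 in the fetal controls and 8404, 9191 and 6451 in the testosterone fetuses. In adults they were 72.6, 112, 165 and 144 in controls 4 to 7 and 56.5, 111, 69.2 and 149 in testosterone samples 4 to 7. Every adult library lay far under every fetal one, and the fetal control mean was 73.6-fold the adult control mean (log2 change -6.22, SE 0.37, limma adjusted p = 5.9e-05). COL6A3, the large chain of the same collagen, went the other way. Its values were 5763, 4003 and 5285 in fetal controls, 4822, 7316 and 7619 in testosterone fetuses, 31858, 14179, 21223 and 14620 in adult controls and 16588, 22857, 17972 and 25798 in testosterone adults. The lowest adult library was above the highest fetal one (log2 change in controls 1.96, SE 0.30, limma adjusted p = 0.0025). COL6A5, which neighbours COL6A6 on chromosome 1 in the RefSeq table, and COL6A2 did not pass, with log2 changes of -0.49 and 0.72.

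FACIT chains passed in both directions. COL22A1, known from the junctions of muscle and tendon, had 985, 804 and 676 normalized counts in fetal controls and 921, 866 and 703 in testosterone fetuses. Adult control 4 stood at 270, adult controls 5 to 7 at 24.7, 22.5 and 39.2, and testosterone adults at 20.4, 43.2, 40.7 and 17.6. All adults were under all fetuses, with control 4 closest to them (log2 change -4.01, SE 0.61, limma adjusted p = 0.0026). COL14A1, which coats type I fibrils, had 2766, 2199 and 2567 in fetal controls and 3558, 4053 and 2738 in testosterone fetuses. Its adult values were 31483, 8681, 9443 and 8740 in controls and 10288, 11804, 7340 and 11501 after testosterone. Every adult library was higher than every fetal one, and control 4 was again apart (log2 change 2.29, SE 0.34, limma adjusted p = 0.0022). COL16A1, another FACIT chain, had means of 7380 ± 868 (SD, n = 3) in fetal and 23526 ± 17236 (SD, n = 4) in adult controls (log2 change 1.37, SE 0.40, limma adjusted p = 0.034). The ages overlapped for COL16A1, with adult control 6 at 7091 and fetal controls up to 8247. It did not pass with edgeR (adjusted p = 0.078) or with limma without library weights (adjusted p = 0.119).

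COL26A1, a chain first described in mouse testis and ovary, had 385, 188 and 222 normalized counts in fetal controls and 281, 316 and 306 in testosterone fetuses. Adult controls had 16.9, 29.2, 24.3 and 17.3 and testosterone adults 26.0, 9.03, 11.2 and 23.8. The 2 ages did not overlap in either treatment (log2 change in controls -3.50, SE 0.53, limma adjusted p = 0.0025).

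Among fibrillar chains, the 3 that fell are the main cartilage chain COL2A1 and both type XI chains measured, which in cartilage join COL2A1 in mixed fibrils. COL2A1 had 100, 58.8 and 173 in fetal controls, 69.5, 236 and 122 in testosterone fetuses, 14.3, 13.5, 8.10 and 26.5 in adult controls and 3.39, 12.0, 26.5 and 18.8 in testosterone adults. All adult values were low and under all fetal ones (log2 change -2.73, SE 0.72, limma adjusted p = 0.023). COL11A2 fell by 1.71 on the log2 scale (SE 0.45, limma adjusted p = 0.023), from 234, 203 and 230 in fetal controls to 64.8, 67.3, 26.1 and 177 in adult controls. COL11A1 fell by 1.40 (SE 0.44, limma adjusted p = 0.042), and its lowest adult control, 297 in control 4, was under the other 3 at 1572, 1190 and 1184. Neither type XI chain passed with edgeR (adjusted p = 0.12 for each) or with DESeq2 (0.060 for COL11A1, 0.059 for COL11A2). COL9A2, a FACIT chain of cartilage, had a positive change of 1.85 (SE 1.20), not called by limma (adjusted p = 0.28) or edgeR (0.125). DESeq2 called it (adjusted p = 0.011). Adult controls 5 and 7 held 497 and 519 of it. Controls 4 and 6, at 7.78 and 8.10, lay under the fetal controls (11.7 to 26.8). Cartilage markers were measured for 5 genes, of which 4 had negative changes and 1 was called lower in adults (median -1.19). Their summed level was 450 to 599 in fetal controls, 180, 430 and 394 in adult controls 5 to 7, and 2444 in control 4. CHAD, at 1701, and ACAN, at 572, made up most of the sum in control 4. The part of these markers in the result was not tested.

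COL4A5, a type IV chain of more specialised basement membranes that pairs with COL4A3 and COL4A4 or with COL4A6, had 24251, 22362 and 24754 in fetal controls and 21368, 28233 and 27758 in testosterone fetuses. Adult controls 5, 6 and 7 had 2793, 2341 and 4029, and testosterone adults 4911, 6651, 3254 and 3687. Adult control 4, at 22195, was just under the lowest fetal control, so the ages were separated widely in 7 of 8 adult libraries (log2 change in controls -2.27, SE 0.49, limma adjusted p = 0.011). COL4A6, its neighbour on chromosome X, did not pass with all controls (log2 change -1.60, adjusted p = 0.055), while control 4 had 15767 against 1164 to 2720 in the other adult controls. Without control 4 it passed (log2 change -2.39, SE 0.24, limma adjusted p = 0.00059). COL4A1 and COL4A2, the chains found in nearly every basement membrane, had log2 changes of 0.73 and 0.60 and did not pass (limma adjusted p = 0.24 and 0.33). They were 0.26 and 0.10 without control 4, and 1.11 and 1.02 without control 7.

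COL8A1, a short-chain network collagen of vessel walls, had the largest positive change, with 91.8, 72.8 and 95.5 in fetal controls and 11573, 206, 4914 and 174 in adult controls (log2 change 3.78, SE 1.01, limma adjusted p = 0.024). All 4 adult controls were above the fetal ones, but 2 of them by far more than the others, and testosterone adults 5 and 6, at 112 and 93.6, lay inside the fetal range of 72.8 to 122. COL1A1, COL1A2 and COL3A1 had log2 changes of 1.05, 1.08 and 0.84 with SEs of 0.50, 0.47 and 0.49, and did not pass (limma adjusted p = 0.15, 0.12 and 0.23). Without control 4 they were 0.52, 0.47 and 0.39.

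**Figure D2:**
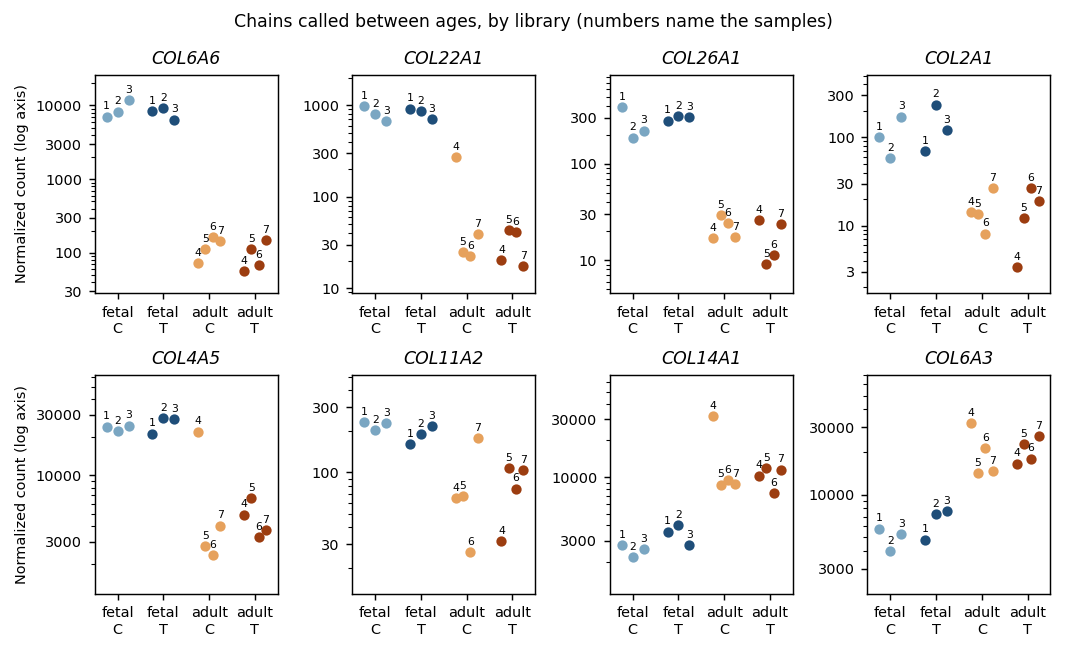
Normalized count (log axis) of 8 chains in every library, by age and treatment (C control, T testosterone), with the sample number above each point. COL6A6, COL22A1, COL26A1 and COL2A1 have all 8 adult points under all 6 fetal points, COL14A1 and COL6A3 have them above, and for COL4A5 adult control 4 lies beside the fetal points.

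The same 36 chains were compared between ages in the 4 adult and 3 fetal testosterone libraries, a set added after the data were seen, and in controls without control 4. In the testosterone libraries 14 chains passed with limma, 6 higher (beside 14.4% of all genes) and 8 lower (15.1%), beside 29.6% in all, and 9 of the 11 chains called in controls were among them. COL8A1 (adjusted p = 0.085) and COL11A1 (adjusted p = 0.36) were not, while COL1A1, COL1A2, COL6A2, COL4A6 and COL21A1 passed in addition. Without control 4, 11 chains passed beside 26.6% of all genes, of which 8 were shared. COL8A1, COL11A1 and COL16A1 then had adjusted p of 0.054, 0.062 and 0.070, and COL4A6, COL5A1 and COL21A1 passed. The 8 chains called in all 3 library sets were COL6A6, COL22A1, COL26A1, COL2A1, COL4A5 and COL11A2, lower in adults, and COL14A1 and COL6A3, higher. Of these, COL11A2 and COL4A5 did not pass with edgeR (adjusted p = 0.12 and 0.18) or with limma without library weights (0.075 and 0.060). With DESeq2 COL11A2 had an adjusted p of 0.059 and COL4A5 none. COL11A2 also missed without fetal control 1, adult control 5 or adult control 6 (limma adjusted p = 0.051, 0.082 and 0.067). COL2A1 missed without adult control 5 or adult control 6 (limma adjusted p = 0.103 and 0.075). Over 19 alternative fits, COL2A1 passed in 17 and COL4A5 in 16. Outside the 8 chains, COL8A1 passed in 12 and COL16A1 in 11.

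Across every adult and fetal library, 2 of 36 chains (COL6A3 and COL14A1) were higher in all adults, 4 (COL6A6, COL22A1, COL26A1 and COL2A1) were lower, and 30 overlapped. Those 6 are 16.7% of the chains, beside 23.4% of all genes without overlap. In controls alone 13 of 36 chains did not overlap between ages, beside 40.5% of all genes. The number of calls depended on the fit: edgeR called 6 chains (beside 20.8% of all genes) and DESeq2 12 (beside 34.2%). Without library weights limma called 6 (16.7% of the chains, beside 20.9%), and with all 14 libraries 21 (58.3%, beside 50.8%). Leaving out fetal control 1, adult control 5 or adult control 6 gave 7 each (19.4% of the chains), beside 24.1%, 13.6% and 18.6% of all genes. With 36 chains these gaps rest on few chains and are not read as a result about the chains. COL6A6, COL22A1, COL26A1, COL14A1 and COL6A3 passed in all 19 alternative fits of the age comparison.

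**Figure D3:**
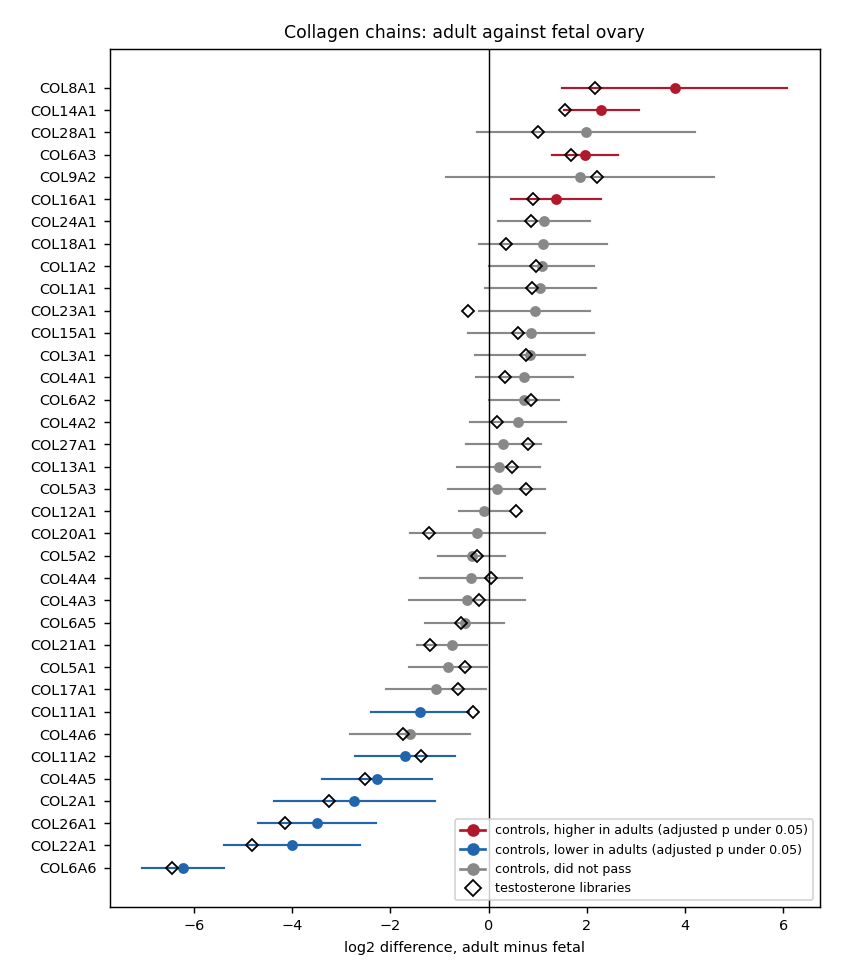
Log2 difference, adult minus fetal, for each of 36 chains: filled circles with 95% intervals for controls, coloured where the adjusted p is under 0.05, and open diamonds for the testosterone libraries. COL6A6 lies farthest to the left, at -6.22, and COL8A1 farthest to the right, at 3.78; the 11 chains called in controls have the same sign in the testosterone libraries.

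Marker genes of the cells an ovary can hold also differed between ages, where 13.7% of all genes were called higher in adult controls and 15% lower. The germ cell list had 9 of 11 measured genes lower in adult controls and 0 higher, with summed levels of 20458 to 26381 in fetal and 1204 to 2686 in adult controls; the oocyte gene BMP15 was at 0 in adult control 4. The smooth muscle list had 9 of 11 higher, with sums of 61088 to 77790 and 120458 to 1139370, and the luteal list 6 of 9 higher, with 3835 to 4508 and 9421 to 260062. Fibroblast stroma genes were split, 1 higher and 2 lower of 9, and their sums overlapped (23447 to 28291 and 19476 to 46248). Granulosa genes had 5 higher and 1 lower of 8, and endothelial genes 2 higher and 1 lower of 11. Higher were also 3 of 10 macrophage and 2 of 5 theca genes, and 2 of 6 epithelium genes were lower. The part of these cell types in the changes of the chains was not tested.

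Genes that make, trim, organise or bind collagen were followed in 4 lists. Of all genes tested, 13.7% were called higher in adult controls and 15% lower. With 9 to 20 genes in a list, the counts below are not read as a result about the lists. In the folding and modification list 3 of 20 measured genes were higher in adult controls and 1 lower. P3H2, a prolyl 3-hydroxylase, had means of 511 ± 26.7 (SD, n = 3) and 2427 ± 1056 (SD, n = 4), a log2 change of 2.14. The lysyl hydroxylases PLOD2 and PLOD3 rose by 1.08 and 1.09 on the log2 scale, and TMEM38B, an ion channel of the endoplasmic reticulum, fell by 1.35. Of 13 processing and crosslinking genes 3 were higher and 0 lower: the procollagen proteinases BMP1 (log2 change 1.20) and TLL1 (2.62) and the lysyl oxidase family member LOXL1 (1.12). Of 12 fibril organisation genes 3 were higher and 0 lower: the small proteoglycans LUM (2.22) and DCN (1.40) and the matricellular THBS2 (1.80). THBS2 overlapped between ages, with 462 in adult control 7 against 389 to 511 in fetal controls. DCN had means of 32138 ± 2905 (SD, n = 3) in fetal and 86525 ± 22785 (SD, n = 4) in adult controls. Among 9 receptors, the integrin subunit ITGA10 was higher (1.01) and ADGRG1, a receptor for type III collagen, was lower (-1.32). The limma adjusted p of these 12 genes ran from 0.00090 for P3H2 to 0.039 for LOXL1. The list medians were 0.16, 0.22, 1.18 and -0.31 for folding, processing, fibril organisation and receptors, beside 0.03 for all genes.

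Collagen values were spread more widely over the 8 adult than over the 6 fetal libraries, a difference described here without a test. The ratio of the highest to the lowest library, over the 36 chains, had a median of 6.13 in adults (from 2.25 to 124) and 1.79 in fetuses (from 1.24 to 4.54). For 14998 genes measured at both ages the medians were 2.61 and 1.43. Control 4 was the highest adult library for 23 chains, which is 63.9% beside 23.5% of all genes, and the lowest for 4. Its smooth muscle marker sum was 1139370 against 120458 to 323181 in the other 7 adults, and its endothelial sum 119950 against 18228 to 63951; their part in the levels of the chains was not tested.

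COL8A1 had the widest range. Beside adult controls 4 and 6 (11573 and 4914), testosterone samples 4 and 7 had 1998 and 1840, and the other 4 adults had 93.6 to 206. COL9A2, a FACIT chain that coats type II fibrils in cartilage, was high in those other adults, with 497 and 519 in controls 5 and 7 and 258 and 453 in testosterone samples 5 and 6. It was 7.78 and 8.10 in controls 4 and 6 and 26.0 and 32.6 in testosterone samples 4 and 7. COL28A1, a small collagen found around peripheral nerves in mouse, had 882, 25.8, 486 and 33.4 in controls 4 to 7 and 257, 312, 8.14 and 94.1 in testosterone samples 4 to 7. Highs and lows of each chain were found in both treatments.

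The same 4 adults, controls 4 and 6 and testosterone samples 4 and 7, were the highest 4 of 8 for 10 chains (27.8%, beside 13.3% of all genes): COL1A1, COL1A2, COL3A1, COL4A1, COL4A2, COL5A1, COL5A2, COL8A1, COL15A1 and COL18A1. They were the lowest 4 for COL4A3, COL4A4 and COL9A2 (8.33%, beside 11.5%). This set was noticed after the values were seen. It was the commonest highest 4 among the chains themselves, a choice that tends to raise its share of the chains. The set is a description with no test. COL1A1 shows it, with 966997, 239618, 359797 and 124830 in controls 4 to 7 and 580846, 220278, 300059 and 468962 in testosterone samples 4 to 7. COL3A1 had 579877, 149925, 270395 and 112722 in controls and 321113, 125845, 136165 and 432535 after testosterone. COL4A1 had 149634, 36213, 72086 and 25418 in controls and 62119, 30937, 27346 and 52031 after testosterone. COL4A4 ran the other way, with 738, 2471, 1211 and 4648 in controls and 1349, 2699, 4188 and 1178 after testosterone. The luteal marker sum was 260062, 282505 and 247853 in control 6 and testosterone samples 4 and 7, and 7119 to 13279 in the other 5 adults, control 4 among them. The macrophage marker sum was 16818 and 56671 in controls 4 and 6, 56963 and 63556 in testosterone samples 4 and 7, and 3966 to 10720 in the other 4. The part of either in these levels was not tested.

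**Figure D4:**
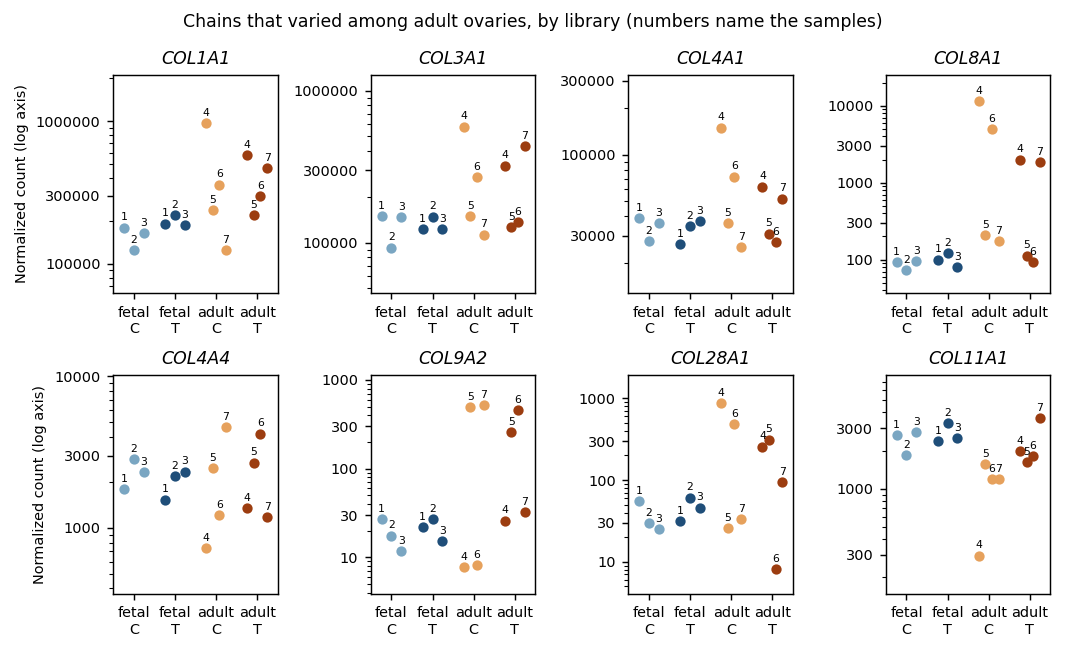
Normalized count (log axis) of 8 chains in every library, by age and treatment (C control, T testosterone), with the sample number above each point. Adult samples C4, C6, T4 and T7 are the high points of COL1A1, COL3A1, COL4A1 and COL8A1 and the low points of COL4A4 and COL9A2; for COL11A1 the 4 adult testosterone points lie above the 4 adult control points.

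Chains that share a molecule were compared as log2 ratios within each library, where size factors drop out. Also compared were COL3A1 with COL1A1 and COL4A5 with COL4A1, which are in different molecules, and COL6A6 with COL6A3, to which it is an alternative. A ratio also carries the lengths of its transcripts, so only its shifts between libraries are read. COL4A1 to COL4A2, which lie side by side on chromosome 10 and assemble together, kept a log2 ratio of 0.71 to 0.89 in fetuses and 0.87 to 1.07 in adults, while COL4A1 itself varied from 25418 to 149634 among adults. COL1A1 to COL1A2 ran from 0.52 to 0.83 in fetuses and 0.34 to 0.98 in adults. COL4A3 to COL4A4 ran from -1.57 to -0.95 and from -1.89 to -1.02. COL5A1 to COL5A2 ran from 0.03 to 0.45 and from -0.45 to 0.39. The fetal and adult ranges of these 4 ratios overlapped. COL3A1 to COL1A1 was -0.28, -0.42 and -0.15 in fetal controls and -0.64, -0.57 and -0.61 in testosterone fetuses, 2 ranges that did not meet. COL1A1 itself did not overlap between these groups, and neither did 16.3% of all genes. The share among ratios of other genes was not computed, and this ratio was not tested. In the other pairs compared, the 2 fetal groups overlapped. In adults COL3A1 to COL1A1 ran from -0.74 to -0.15 in controls and from -1.14 to -0.12 after testosterone, which overlapped.

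Some pairs were separated between ages. COL4A5 to COL4A6 was 1.30 to 1.51 in fetuses and 0.30 to 1.01 in adults, and COL4A5 to COL4A1 was -0.69 to -0.29 and -4.95 to -2.22. Adult control 4, with its high COL4A5, stood at -2.75 in the latter ratio, inside the adult range. COL6A6 to COL6A3 was -0.24 to 1.18 in fetuses and -8.78 to -6.67 in adults. COL6A3 to COL6A2 overlapped between ages, at -2.32 to -1.58 in fetuses and -1.75 to -0.33 in adults. COL11A1 to COL5A1 also overlapped, at -3.29 to -2.62 and -6.59 to -2.125. The pairs with COL4A5 and COL6A6 were added after the values were seen, and the overlapping pairs were not planned either. COL4A5 and COL6A6 had already been called between ages as single chains, so the separation of their pairs is no further support. The COL9A1 to COL9A2 ratio was measured in fetuses only and ran from 4.20 to 6.62.

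The second question was whether prenatal testosterone changed the chains in the fetal ovary at day 90, at the end of exposure. Of 38 chains, 0 passed with limma (beside 0.0183% of 16363 genes), 0 with edgeR (0.0244%) and 0 with DESeq2 (1.44%). At an unadjusted limma p under 0.05 there were 5 of 38, or 13.2%, beside 9.8% of all genes: COL25A1 and COL27A1 with lower and COL6A5, COL14A1 and COL1A1 with higher means after testosterone. Of the 11 fibrillar chains 2 were among the 5, of the 8 basement membrane chains 0, and of the 19 others 3. The median log2 change of the 38 was 0.04, 23 positive and 15 negative, beside -0.02 for all genes. The authors' deposited fetal table gives 37 chains an adjusted p, and for 0 of them it is under 0.05 (beside 1.76% of its genes), with a smallest value of 0.165. The authors' deposited table gives 7 of 38 chains (18.4%) an unadjusted p under 0.05, beside 10% of all genes.

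COL25A1, a transmembrane collagen of neurons and muscle, had 44.0, 50.9 and 47.7 normalized counts in fetal controls and 19.4, 18.0 and 28.9 after testosterone. The groups did not overlap, at low counts (log2 change -1.10, SE 0.29, limma adjusted p = 0.32). COL6A5, another alternative type VI chain, had 459, 766 and 603 in controls and 816, 974 and 843 after testosterone, also with no overlap (log2 change 0.55, SE 0.18, limma adjusted p = 0.42), and 0.36 without control 1. COL1A1 had 179776, 124283 and 163843 in controls and 191417, 220388 and 186482 after testosterone. The lowest exposed fetus was just above the highest control (log2 change 0.37, SE 0.15, limma adjusted p = 0.48). Without control 2 its log2 change was 0.21. COL13A1, a transmembrane chain of cell junctions, did not overlap either, with 382, 415 and 410 in controls and 372, 328 and 200 after testosterone (log2 change -0.47, SE 0.22, limma adjusted p = 0.55), and had -0.20 without testosterone fetus 3. These 4 chains without overlap are 10.5% of 38, beside 16.3% of all genes.

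COL14A1 overlapped by 1 library, with 2738 in testosterone fetus 3 against 2766 in control 1 (log2 change 0.45, SE 0.15, limma adjusted p = 0.43). COL27A1, a minor fibrillar chain, had 3658, 3533 and 2692 in controls and 2073, 2936 and 2046 after testosterone, so that control 3 lay among the exposed fetuses (log2 change -0.49, SE 0.17, limma adjusted p = 0.43). COL1A2 and COL3A1 had log2 changes of 0.24 (95% interval -0.07 to 0.55) and 0.05 (-0.39 to 0.48). COL4A1 and COL4A2 had -0.07 (-0.44 to 0.31) and -0.03 (-0.36 to 0.31), intervals that span 0. All 11 smooth muscle markers had positive changes in fetuses (0 passed, median 0.54), with sums of 61088 to 77790 in controls and 81865 to 108824 after testosterone, and 13 of 14 germ cell markers had negative ones (0 passed, median -0.34). Their part in the values of the chains was not tested.

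In the adult ovary, 4 testosterone samples were compared with 4 controls. Of 36 chains 0 passed with limma (beside 0.0127% of 15770 genes), 0 with edgeR (0.00634%) and 0 with DESeq2 (0.0444%). COL11A1 was the 1 chain with an unadjusted limma p under 0.05 (2.78% of chains, beside 0.812% of all genes) and the 1 chain without overlap between groups (beside 0.717%). It had 297, 1572, 1190 and 1184 in controls and 1993, 1625, 1803 and 3602 after testosterone. The exposed samples were higher in 4 of 4, by little over control 5 in testosterone sample 5, and the log2 change was 1.25 (SE 0.51, limma unadjusted p = 0.037, adjusted p = 1.0). Without control 4 the change was 0.72 (unadjusted p = 0.042), and without testosterone sample 7 it was 0.998 (unadjusted p = 0.10).

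The chains of next smallest p overlapped between groups. COL21A1, a FACIT chain, had 1369, 544, 942 and 536 in controls and 794, 480, 442 and 537 after testosterone, a log2 change of -0.51 (SE 0.35). COL6A5 had 323, 594, 322 and 524 in controls and 859, 725, 728 and 271 after testosterone, a log2 change of 0.48 (SE 0.40). COL12A1, a FACIT chain of tendon and stroma, had a log2 change of 0.25 (SE 0.36). COL20A1 and COL18A1, the source of endostatin, had -0.89 (SE 0.87) and -0.73 (SE 0.70), and in both control 4 held the highest value, at 469 and 122388, with the other 7 adults at 20.1 to 96.6 and 9681 to 20097. Without control 4, COL20A1 had a log2 change of -0.06, COL18A1 one of 0.07 and COL21A1 one of -0.25. COL6A5 had 0.30 without testosterone sample 4 and 0.86 without sample 7, and COL12A1 ran from 0.02 to 0.49 over the libraries left out.

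COL1A1, COL1A2 and COL3A1 had adult log2 changes of 0.20 (95% interval -1.25 to 1.64), 0.12 (-1.30 to 1.54) and -0.04 (-1.44 to 1.36). COL4A1 and COL4A2 had -0.47 (-1.71 to 0.78) and -0.46 (-1.76 to 0.84). These intervals leave room for changes of more than 1 log2 unit in one direction or both, so the adult data do not show that the chains were alike in the groups. The median over 36 chains was -0.07, 16 positive and 20 negative, beside -0.01 for all genes. By class, 9 of 11 fibrillar chains were positive, 1 of 8 basement membrane chains and 6 of 17 others, with 0 passing in each. The authors' deposited tables give p-values for 33 chains in the first adult table and 36 in the second, and 0 passed in either (beside 0.0257% and 0.0318% of all genes). The authors' deposited tables give 3 chains (9.09%) and 4 chains (11.1%) an unadjusted p under 0.05, beside 2.13% and 1.92% of all genes; the 2 tables share 4 libraries. All 11 smooth muscle markers were negative and all 9 luteal and all 10 macrophage markers positive in the same comparison (0 passed in each). The luteal and macrophage sums were highest in control 6 and testosterone samples 4 and 7, and the smooth muscle sum in control 4. The part of these markers in the values of the chains was not tested.

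**Figure D5:**
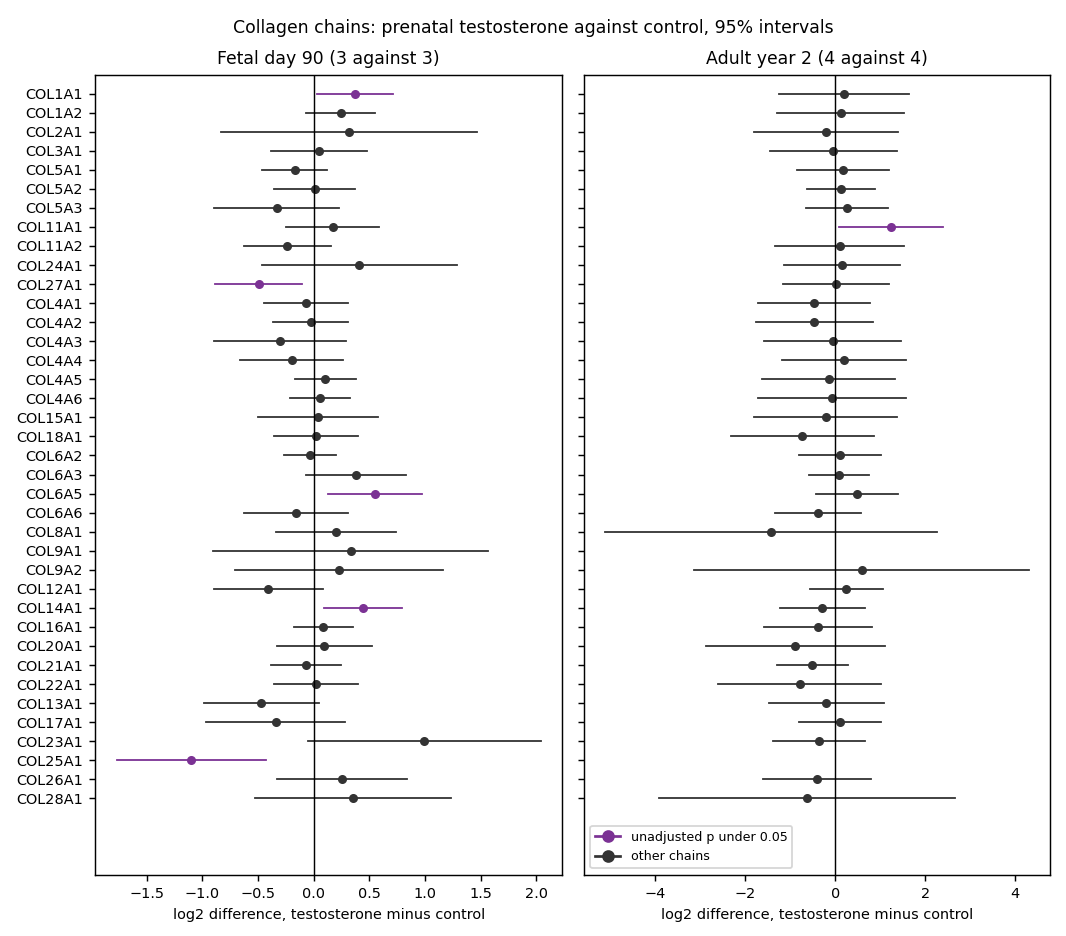
Log2 difference, testosterone minus control, with 95% intervals for each chain in fetuses (left, 38 chains) and adults (right, 36 chains); the horizontal scales differ, and purple marks an unadjusted p under 0.05. In fetuses COL25A1 lies farthest left at -1.10, adult intervals are wider, and 0 chains passed after adjustment at either age.

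The difference between the adult and the fetal effect of testosterone was tested for 36 chains in 1 fit of all 14 libraries. With limma 0 passed (beside 0.00659% of 15175 genes) and 0 had an unadjusted p under 0.05 (beside 2.29%). With edgeR 0 passed (beside 0.00659%) and with DESeq2 0 (beside 0.0659%). The smallest p was that of COL11A1, with an effect 1.08 larger in adults (SE 0.55, limma unadjusted p = 0.071). The next positive ones were COL12A1 (0.66, SE 0.49) and COL5A3, a type V chain (0.60, SE 0.55). The smallest p among negative ones belonged to COL14A1 (-0.73, SE 0.45), COL23A1, a transmembrane chain (-1.35, SE 0.85), and COL20A1 (-0.98, SE 0.81). Without adult control 4 the differences were 0.54 for COL11A1, -0.28 for COL14A1, -0.16 for COL20A1 and 0.94 for COL5A3. Over all libraries left out, COL5A3 ran from 0.31 to 0.94 and COL12A1 from 0.38 to 0.90. COL1A1, COL1A2, COL3A1, COL4A1 and COL4A2 had differences of -0.17, -0.12, -0.08, -0.40 and -0.43, each smaller than its SE of 0.56 to 0.62.

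In the 4 pathway lists 0 genes passed in the fetal, adult or difference comparison. The members of smallest p in fetuses were the proteoglycan PRELP, with means of 5555 ± 792 in controls and 3667 ± 202 after testosterone (SD, 3 each; log2 change -0.59, limma adjusted p = 0.23), the proteinase enhancer PCOLCE2 (0.30, 0.32), the prolyl isomerase PPIB (0.32, 0.37) and ITGA10 (0.28, 0.56), given as log2 change and limma adjusted p. In adults they were the galactosyltransferase COLGALT2 (log2 change -0.71), the integrin subunit ITGB1 (-0.27), LUM (0.68) and TLL1 (-0.62). For the difference between ages they were P3H2 (-0.75), the collagen-binding integrin subunit ITGA11 (1.52), LOXL1 (-0.50) and LUM (0.70). The limma adjusted p was 1.0 for each of these 8 values.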

How the data were processed

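Whole-ovary RNA of 14 sheep was analysed from 3 tables the authors deposited: signal columns per library, plus the authors' log2 fold changes and p-values. Trimming used Trimmomatic 0.36 and alignment STAR 2.5.2b, per the submitters' processing notes; DESeq2 was used for the comparisons, per the series' design text; counter, build and annotation: not given in the sources used here. Each deposited signal value is a normalized count: in every column 100% of values were whole multiples of 1 step (tolerance 0.01 read), so whole reads were recovered and 14 libraries joined on median-of-ratios size factors. Deposited rows start near a mean of 10 (lowest row means 10.04, 9.796 and 9.281), so a chain not listed may be low rather than at 0; 4327 rows with an identifier but no gene name stayed out of naming but not of the tests. Adult control 6 had 26.4 M reads in 1 table and 33.4 M in the other, and the deeper was used; the other 3 shared libraries were identical. The series text counts 3 adult controls, the labels 4.

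Tests were made in R 4.3.3 by limma 3.58.1, with its trend option, on log2(normalized count + 1) of genes whose mean reached 10, Benjamini-Hochberg adjusted over all genes, threshold 0.05; fits across ages used library weights per age. Fold changes on this scale understate changes of low genes. On recovered reads edgeR 4.0.16 (quasi-likelihood) and DESeq2 1.42.0 were alternatives. Fits were tested on simulated data. Named were COL1A1, COL1A2, COL3A1, COL4A1 and COL4A2, chains past a threshold or else 3 of smallest p per direction (up to 5 by size between ages), the 3 of widest adult range, and for each pathway list up to 3 past the threshold per direction or the 1 of smallest p; other chains were named after their values were seen. Members and lists were chosen with earlier results of these data known.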

Additional observations from a re-analysis of the deposited data

Results flagged for a closer look

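A library was marked where its gap to the nearest other library of its group of 4, divided by the range of the group, passed Dixon's 95% critical value. This gave 13 marks over 72 groups of 4 adult libraries. The ratios were taken on normalized counts without a log. A chance rate of about 1 in 20 holds for independent groups of normally distributed values. All groups here came from the same adult libraries, so the number of marks is a description and is not set against chance. Groups of 3 fetuses were not tested. Control 4 accounted for 10 of the 13. It was apart on the high side for COL14A1 (ratio of gap to range 0.967, 31483 against 9443 in the next control), COL20A1 (0.946, 469 against 63.3), COL22A1 (0.933, 270 against 39.2), COL4A5 (0.915, 22195 against 4029), COL18A1 (0.908, 122388 against 20097), COL4A6 (0.893, 15767 against 2720), COL15A1 (0.874, 14348 against 2916), COL1A2 (0.871, 742558 against 181959) and COL13A1 (0.838, 1250 against 397). It was apart on the low side for COL17A1, a chain of hemidesmosomes (0.96, 24.6 against 48.4). COL24A1, a minor fibrillar chain, was high in adult control 7 (0.9, 304 against 110) and in testosterone adult 7 (0.907, 406 against 125). COL5A2 was high in testosterone adult 7 (0.849, 20047 against 12661).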

How the results depend on the processing

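No chain (0) was called in the fetal, adult and difference comparisons under each alternative run: pseudocounts of 0.5 and 5, no filter, a mean of at least 50, TMM, edgeR, DESeq2, a threshold of 0.1, leaving out each library and, where they applied, values as deposited, each adult table, luteal or smooth muscle lists as covariates, control 6 from the first table and no library weights. Between ages the 11 calls became 6 with edgeR, 6 with no library weights and 21 with all 14 libraries (16.7%, 16.7% and 58.3% of the chains, beside 20.8%, 20.9% and 50.8% of all genes), and ran from 7 to 11 when a library was left out; the other alternatives gave 11 to 14.

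Adult changes of some named chains turned in sign, none having passed. COL3A1 was 0.0017 with TMM and 0.14 with the smooth muscle covariate, and COL20A1 0.19 with that covariate. COL1A1 and COL1A2 were -0.11 and -0.27 with edgeR and with DESeq2, -0.37 and -0.41 in the first adult table, where COL12A1 was -0.19, and -0.15 and -0.19 in the second. The cause was not tested. Leaving out libraries gave, in fetuses, -0.18 to 0.16 for COL3A1, -0.21 to 0.077 for COL4A1 and -0.13 to 0.12 for COL4A2. In adults it gave -0.25 to 0.73 for COL1A1, -0.24 to 0.73 for COL1A2, -0.38 to 0.41 for COL3A1, -0.85 to 0.00642 for COL4A1, -0.88 to 0.036 for COL4A2 and -1.15 to 0.071 for COL18A1. For the difference it gave -0.62 to 0.36 for COL1A1, -0.48 to 0.49 for COL1A2, -0.42 to 0.37 for COL3A1, -0.78 to 0.075 for COL4A1 and -0.85 to 0.063 for COL4A2.

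With the sample number as a replicate block, 0 chains were called in fetuses and 0 in adults; deviations of same-numbered samples correlated at 0.13, 0.01 and 0.41 in fetuses and 0.05, 0.30, -0.64 and -0.19 in adults, so the numbers were not taken to pair the samples. Depth of 22.6 to 33.4 M reads leaves chains with few reads, such as COL2A1 and COL26A1 in adults, least precise.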
